A study of Mus musculus with 2 samples.

Results

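The genes described here encode the proteins of the mitochondrial ribosome that carry the symbols Mrpl or Mrps. They were taken by symbol alone (Mrpl or Mrps, a number and at most 1 further letter), with every transcript model assigned to them, a rule that reads no measured value. The rule gave 78 genes of the 18177 annotated genes with at least 1 read, and all 78 had reads in both libraries. By their place in solved mammalian mitoribosome structures, 51 of the 78 belong to the large subunit and 26 to the small subunit. Mrps18a and Mrps30 are counted with the large subunit, where their proteins were found in spite of the symbol. Mrps36 is kept apart, since its product was not part of the solved ribosome and is known as a component of the 2-oxoglutarate dehydrogenase complex.

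The mitochondrial ribosome translates the few messenger RNAs encoded by mitochondrial DNA, which specify core subunits of the respiratory chain and of ATP synthase. Its RNAs are encoded in mitochondria, while all of its proteins are encoded in the nucleus, made in the cytosol and imported. Some of these proteins have bacterial counterparts and others were added in the course of mitochondrial evolution. The adrenal cortex is rich in mitochondria, in which the first and the last steps of corticosteroid synthesis take place.

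The study sequenced long reads from adrenal gland of 14-day-old male mice of the strain B6CASTF1/J, a cross of C57BL/6J and CAST/EiJ. It holds 1 group of 2 libraries, labelled biological replicates 2 and 1, with no treatment and no other genotype, so the only contrast is between the libraries. The labels describe a set of 3 males and give both libraries the same donor identifier. It is thus not known whether the libraries come from separate animals. The tests compare these 2 libraries and cover counting error only, without an estimate of the spread between libraries. Since the mice are hybrids, reads of either parental allele were assigned to models of the reference strain.

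Replicate 2 held 985101 reads and replicate 1 held 964815 reads without ERCC spike-ins, of which 9940 and 9031 fell on the 78 genes, in 573 and 549 transcript models. At these depths 3 reads correspond to 3.05 CPM in replicate 2 and 3.11 CPM in replicate 1 (CPM, counts scaled to a sum of 1000000 reads without spike-ins). Adrenal cortex markers summed to 34517 and 34623 CPM and chromaffin markers to 7941 and 8170 CPM in replicates 2 and 1, all 5 markers of each list being detected. Single markers differed in the binomial test described further on. Cyp11a1 was called higher in replicate 2 (ratio 1.16). Cyp21a1 (0.86), Cyp11b1 (0.78) and Star (0.94) were called higher in replicate 1, as were Th (0.89) and Dbh (0.73). Nr5a1, Chga, Chgb and Pnmt were not called. Brown fat markers (Ucp1, Cidea and Cox7a1) summed to 6475 and 6026 CPM in replicates 2 and 1, Cox7a1 alone being called, higher in replicate 2. Erythroid markers (Hba-a1, Hbb-bs and Alas2) summed to 11663 and 11870 CPM, Hbb-bs and Alas2 being called higher in replicate 1. From which of these tissues the mitoribosomal reads came was not tested. Of 4 kidney markers, Umod, Slc12a1 and Slc34a1 had no reads. All 8 liver markers were higher in replicate 2, their sum being 15655 CPM there and 754 CPM in replicate 1. Taking these 8 genes out of the total left the number of mitoribosomal genes called between the libraries at 5. This changes only the scaling, since any mitoribosomal reads from liver RNA stay in the counts.

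Together the 78 genes made up 10090 CPM in replicate 2 and 9360 CPM in replicate 1, or 9725 ± 516 CPM (mean ± SD, n = 2). Each gene was detected well above the level of 3 reads. The lowest, Mrpl47, had 23 reads in replicate 2 and 34 in replicate 1. Mean levels ran over a 14.8-fold range, and 38 of the 78 genes were above 100 CPM in both libraries. A long read was counted once whatever the length of its transcript, so CPM was not divided by length except where genes are ranked against each other. For such ranks CPM was divided by the read-weighted mean length of a gene's transcript models in kb. Between replicate 2 and replicate 1, the 78 levels in CPM had a Pearson correlation of 0.94 on the log2 scale and a Spearman correlation of 0.91, given as a description across genes that share 2 libraries.

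**Figure D1:**
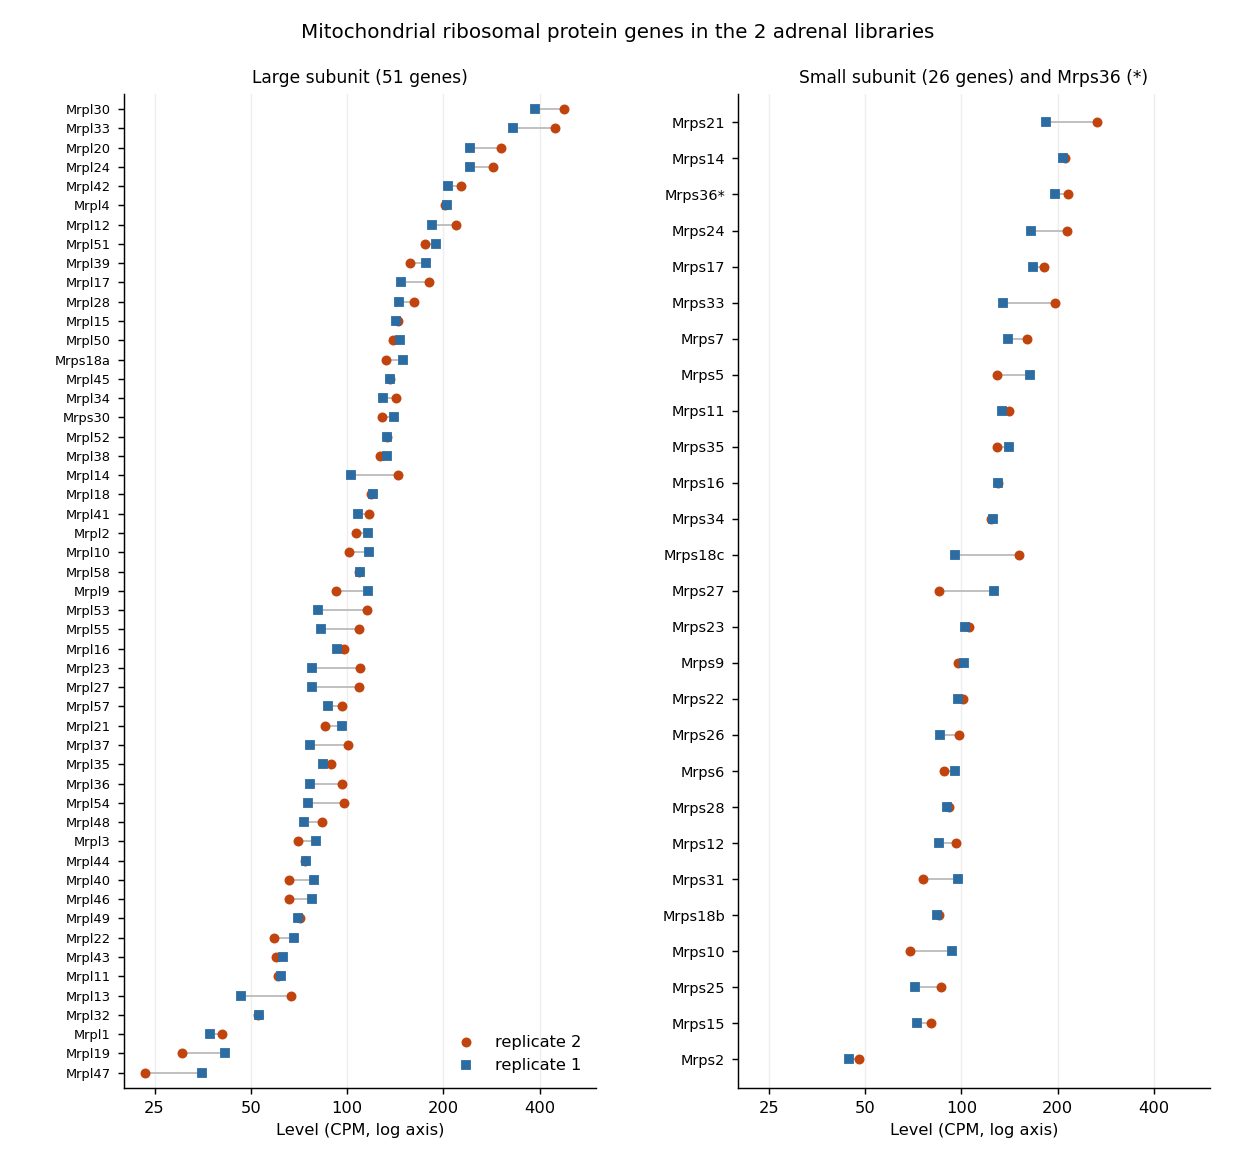
Level of each of the 78 genes in CPM (log axis) in replicate 2 (circles) and replicate 1 (squares), with the 51 large-subunit genes on the left and the 26 small-subunit genes and Mrps36 on the right, ordered by mean. Each gene has 1 value per library and the grey line joins them. Mrpl30 and Mrpl33 lie at the top and Mrpl47, Mrpl19 and Mrpl1 at the bottom.

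Mrpl30, whose product is a large-subunit protein with a bacterial counterpart, had 477 CPM in replicate 2 and 388 CPM in replicate 1. Mrpl33, another large-subunit protein of bacterial origin, had 446 CPM in replicate 2 and 331 CPM in replicate 1. These genes also had the highest levels per kb, with means of 1022 and 758 CPM per kb. The rank of Mrpl30 rests in part on short single-exon models, described further on, which lower its mean model length to 423 bases.

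The other 8 of the 10 genes with the highest mean CPM lay between 201 and 273 CPM on average. Mrpl20, a large-subunit protein with a bacterial counterpart, had 303 CPM in replicate 2 and 243 CPM in replicate 1. Mrpl24, likewise of bacterial origin, had 286 CPM in replicate 2 and 241 CPM in replicate 1. Its rank rests in part on a single-exon genomic model, described further on, with 184 of 282 reads in replicate 2 and 125 of 233 in replicate 1. Known models and new chains of Mrpl24 held 97 and 104 reads in replicates 2 and 1. Mrps21, a small-subunit protein with a bacterial counterpart, had 265 CPM in replicate 2 and 183 CPM in replicate 1. Mrps21 ranked 3 and Mrpl20 ranked 4 per kb, with means of 467 and 401 CPM per kb.

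Mrpl42, a large-subunit protein without a bacterial counterpart, had 227 CPM in replicate 2 and 206 CPM in replicate 1. Mrps14, a small-subunit protein of bacterial origin, had 210 and 208 CPM in replicates 2 and 1. Mrps36 had 215 and 196 CPM in replicates 2 and 1. The ranges of these 3 genes overlapped, so their order in CPM was not resolved. Per kb they did not lie together, since Mrpl42 ranked 5, Mrps36 ranked 7 and Mrps14, whose models averaged 2923 bases, ranked 45 of 78.

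Mrpl4, a large-subunit protein of bacterial origin, had 202 CPM in replicate 2 and 205 CPM in replicate 1. Mrpl12 had 218 CPM in replicate 2 and 184 CPM in replicate 1. Mrpl12 is the stalk protein that contacts translation factors and is known also to bind the mitochondrial RNA polymerase. The 10 genes together held 28.2% of the mitoribosomal reads in replicate 2 and 25.5% in replicate 1, and 6 of the 10 were also among the 10 highest per kb.

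The other proteins of the stalk base had lower counts. Mrpl10, which anchors the stalk, had 102 CPM in replicate 2 and 117 CPM in replicate 1. Mrpl11 had 60.9 CPM in replicate 2 and 62.2 CPM in replicate 1. Per kb the stalk genes kept this order, with means of 159 CPM per kb for Mrpl12, 65.6 for Mrpl10 and 22.1 for Mrpl11, and no value of 1 gene overlapped with those of the next.

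The Mrps18 paralogs encode related proteins that sit at different places: Mrps18a in the large subunit, Mrps18b and Mrps18c in the small subunit. Mrps18a had 132 CPM in replicate 2 and 149 CPM in replicate 1. Mrps18b had 85.3 CPM in replicate 2 and 84.0 CPM in replicate 1. Mrps18c, the paralog in the position of the bacterial protein, had 151 CPM in replicate 2 and 95.4 CPM in replicate 1. Per kb the means were 155 for Mrps18a, 80.5 for Mrps18b and 195 for Mrps18c, and the order of Mrps18a and Mrps18c differed between the libraries: 145 against 239 CPM per kb in replicate 2, and 164 against 151 CPM per kb in replicate 1.

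At the low end, Mrpl19 had 30.5 CPM in replicate 2 and 41.5 CPM in replicate 1. Mrpl47 had 23.3 CPM in replicate 2 and 35.2 CPM in replicate 1. Mrpl1 had 40.6 and 37.3 CPM in replicates 2 and 1, and Mrps2, the lowest of the small subunit, had 47.7 and 44.6 CPM. Mrpl19, Mrpl47 and Mrpl1 belong to the large subunit and were also the 3 lowest of the 78 per kb.

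The ranges of the large-subunit and small-subunit medians over the 2 libraries overlapped. The median large-subunit gene had 109 CPM in replicate 2 and 103 CPM in replicate 1, and the median small-subunit gene had 104 CPM in replicate 2 and 102 CPM in replicate 1. Divided by length, the medians were 77.3 and 85.5 CPM per kb for the large subunit and 81.9 and 79.4 CPM per kb for the small subunit in replicates 2 and 1. Genes whose products have a bacterial counterpart had a median of 109 CPM in both libraries over 44 genes. Those without one had 104 CPM in replicate 2 and 100.02 CPM in replicate 1 over 32 genes, Mrps36 among them. Of the 51 large-subunit genes, 28 were placed in the first group and 21 in the second, and the rest in neither. Per kb, the upper quartile of the 78 genes was 2.82 times the lower quartile, beside 3.72 times in the 5018 other genes within the same range of mean CPM.

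The reads of each gene were then compared between the libraries with a two-sided exact binomial test, adjusted over 11094 genes with at least 10 reads in all. Of the 78 genes, 5 were called higher in replicate 2, 0 were called higher in replicate 1 and 73 were not called at an adjusted p under 0.05. Over all genes tested, 9.17% were called, 4.35% higher in replicate 2 and 4.81% higher in replicate 1. At an unadjusted p under 0.05 in this test there were 12 of the 78, a count given without the share over all genes. The share of the 78 called higher in replicate 2 was 6.41%, beside the 4.35% of all genes in that direction. Scaling by TMM (edgeR) moved the median log2 ratio of all tested genes to 0.01, against -0.15 with the share of all reads, and with it 12 of the 78 were called higher in replicate 2 and 0 higher in replicate 1. Over all genes the split was then 675 higher in replicate 2 against 205 higher in replicate 1, beside 483 against 534 with the share of all reads.

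The called genes were Mrpl30 (mm10, chromosome 1, 37890477 to 37898535), Mrpl33 (chromosome 5, 31596935 to 31664384), Mrps21 (chromosome 3, 95862634 to 95871519), Mrps33 (chromosome 6, 39801804 to 39810988) and Mrps18c (chromosome 5, 100798627 to 100804471). Mrpl30 had 470 reads in replicate 2 and 374 in replicate 1, a ratio of read shares of 1.23 (exact 95% interval 1.07 to 1.41, adjusted p = 0.034 in the exact binomial test). Mrpl33 had 439 reads in replicate 2 and 319 in replicate 1, at a ratio of 1.35 (interval 1.16 to 1.56, adjusted p = 0.0012 in the exact binomial test). Mrps21 had 261 reads in replicate 2 and 177 in replicate 1, at a ratio of 1.44 (interval 1.19 to 1.76, adjusted p = 0.0035 in the exact binomial test). All 3 lie among the 5 genes with the highest mean CPM, where the test resolves small ratios best.

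Mrps33, a small-subunit protein without a bacterial counterpart, had 193 reads in replicate 2 and 130 in replicate 1, at a ratio of 1.45 (interval 1.16 to 1.83, adjusted p = 0.015 in the exact binomial test). Mrps18c had 149 reads in replicate 2 and 92 in replicate 1, at a ratio of 1.59 (interval 1.22 to 2.08, adjusted p = 0.0091 in the exact binomial test), the highest ratio of the 78. The call of Mrpl30 depended on the processing. With spike-in scaling its ratio was 1.18 with an adjusted p of 0.12 in the exact binomial test, and over reads of known models alone it was 1.24 with an adjusted p of 0.37.

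Mrps27, a small-subunit protein with the helical repeats of RNA-binding proteins, was nearest to a call in the other direction, with 84 reads in replicate 2 and 122 in replicate 1, at a ratio of 0.67 (interval 0.50 to 0.90, adjusted p = 0.056 in the exact binomial test). It was called higher in replicate 1 with spike-in scaling (adjusted p = 0.025) and with a minimum of 20 reads (adjusted p = 0.049). It is named here after its values were seen. Mrpl47 had the lowest ratio, 0.66, with an interval of 0.37 to 1.16.

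The log2 ratio (replicate 2 over replicate 1) had a median of 0.03 over the 78 genes, and 45 of 78 (57.7%) lay above 0, beside a median of -0.15 and 36.8% above 0 over all genes tested. The ratio varied with model length also among other genes in the same range of CPM, and the mitoribosomal genes were shorter than most: the median of their mean model lengths was 1252 bases, beside 2337 bases over all tested genes. Of the 78, 30 had a mean model length under 1000 bases. Of these, 4 were called higher in replicate 2 (13.3%) and 0 higher in replicate 1, with a median log2 ratio of 0.14. Among the 552 other genes under 1000 bases in the same range of CPM, 13.4% were called higher in replicate 2 and 1.45% higher in replicate 1, also with a median log2 ratio of 0.14.

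Of the 48 mitoribosomal genes of 1000 bases and over, 1 was called higher in replicate 2 (Mrps33, 1054 bases) and the median log2 ratio was -0.01. The 4466 other genes of that length had a median of -0.19. Among the 10 genes of 2000 to 3000 bases the median was -0.0048, beside -0.22 in 1515 others, and among the 12 over 3000 bases it was -0.05, beside -0.32 in 1327 others. Lengths are those of the models and not of the reads: all but a few reads of Mrpl17 were assigned to a model of 7300 bases. The part of transcript length, or of the liver RNA in replicate 2, in the ratios between libraries was not tested.

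**Figure D2:**
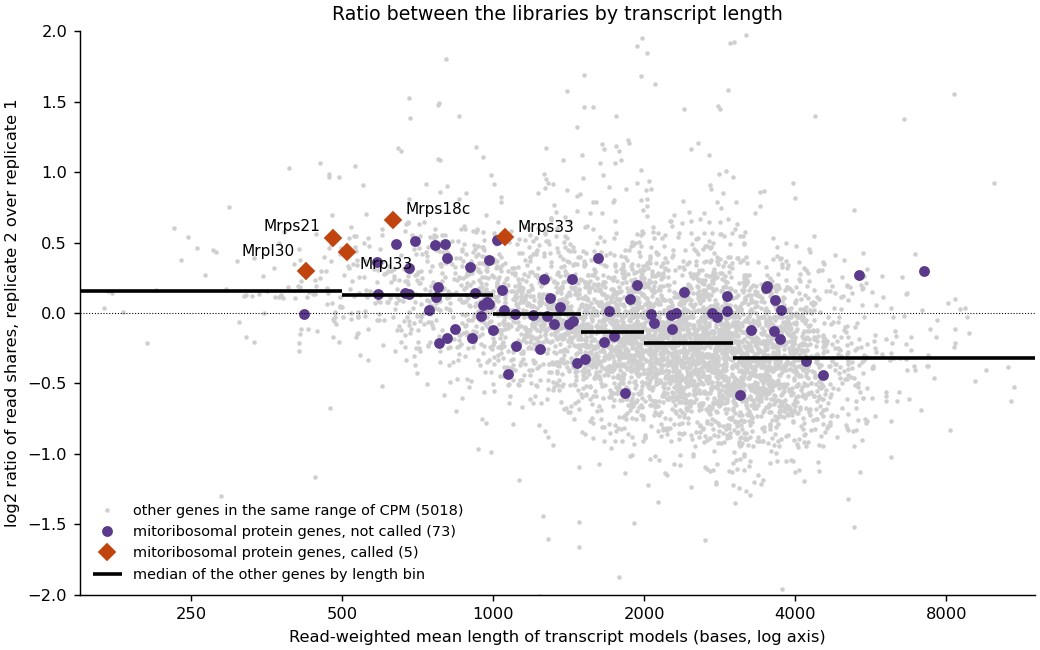
Log2 ratio of read shares, replicate 2 over replicate 1, against the read-weighted mean length of a gene's transcript models (log axis). Grey points are other genes in the same range of mean CPM (104 of 5018 lie outside the axes), circles are the 73 mitoribosomal genes not called, diamonds are the 5 called, and black bars are medians of the other genes per length bin. The called genes lie at lengths up to 1054 bases, and the black bars go down with length, to -0.32 over 3000 bases.

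Most mitoribosomal reads followed annotated transcripts. Reads in known models, which match an annotated transcript, made up 79.5% of the reads of the 78 genes in replicate 2 (Wilson 95% interval 78.7 to 80.3) and 82.3% in replicate 1 (81.5 to 83.1), beside 73.7% and 76.3% over all annotated genes in replicates 2 and 1. The median gene had 90.2% in replicate 2 and 91.4% in replicate 1, beside medians of 71.2% and 74.1% over all tested genes, and 64 of the 78 were above 80% in both libraries. In the other genes of the same CPM range and of the middle 90% of mitoribosomal lengths, the medians were 78.4% in replicate 2 and 81.2% in replicate 1. Of the known reads of the 78 genes, 98.2% fell on protein-coding transcripts in both libraries.

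In a two-sided Fisher exact test of known against other reads, adjusted over 6033 genes, 0 of the 78 were called. Under an unadjusted p of 0.05 in this test were 4 of the 78, also without a share over all genes beside them. Over all genes 0.812% were called, 0.0332% higher in replicate 2 and 0.779% higher in replicate 1. The lowest p belonged to Mrps5, a small-subunit protein of bacterial origin, with 85.0% known in replicate 2 and 96.8% in replicate 1 (adjusted p = 0.05003 in the Fisher exact test). Known shares were lower in replicate 2 for 52 of the 78 (66.7%), beside 62.1% of all tested genes.

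The genes with less than 50% known reads in both libraries were Mrpl33, Mrpl30 and Mrpl24. Without them the share of known reads was 87.8% in replicate 2 and 89.1% in replicate 1. The other reads fell into incomplete splice matches (8.04% in replicate 2 and 5.25% in replicate 1), new chains with an unannotated splice site (6.01% and 5.22%), new combinations of annotated sites (1.98% and 1.85%) and the genomic class of unspliced or intron-holding reads (4.47% and 5.39%). Of the mitoribosomal models, 50.4% in replicate 2 and 53.6% in replicate 1 rested on 1 read.

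**Figure D3:**
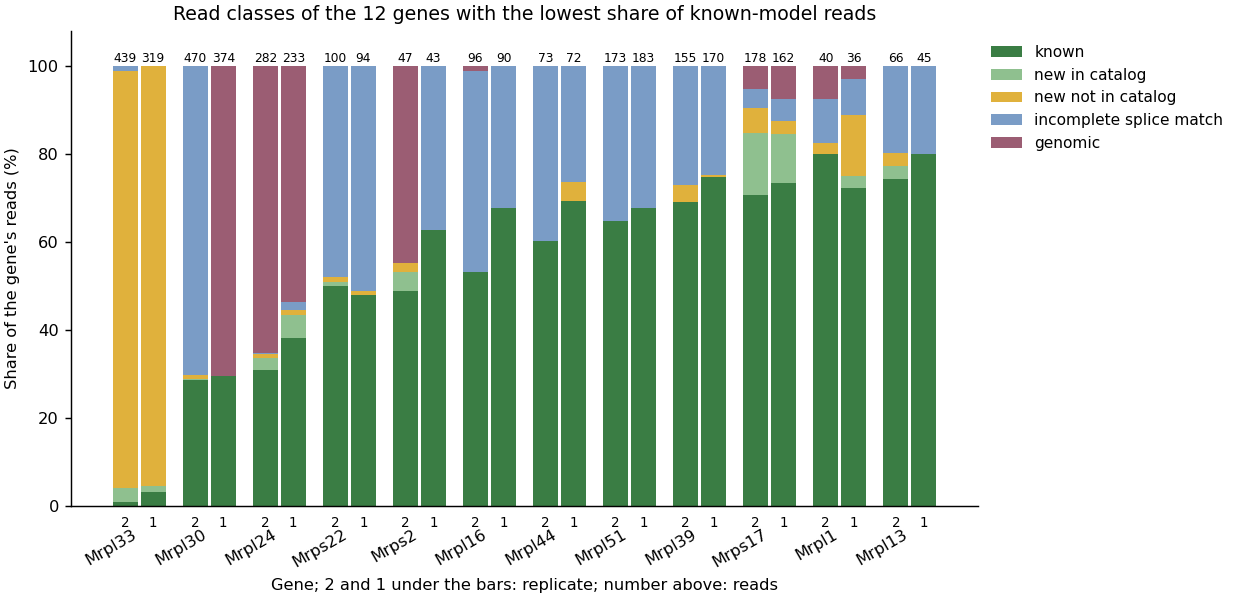
Share of reads (%) in each read class for the 12 genes with the lowest mean share of known-model reads, with replicate 2 as the left bar and replicate 1 as the right bar of each pair and the number of reads above each bar. Mrpl33 is almost wholly in the class new not in catalog, Mrpl30 changes class between libraries at nearly the same share, and Mrpl24 has 65.2% and 53.6% of genomic reads.

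In Mrpl33 the read model with the most reads was not an annotated one. Of 439 reads in replicate 2, 4 were in known models, and of 319 in replicate 1, 10 were, those of replicate 1 all in the retained-intron transcript Mrpl33-203. The protein-coding transcript Mrpl33-201 (mm10, chromosome 5, plus strand) was listed in neither library. It has 4 exons, the second of 19 bases (31614603 to 31614621). The main model had 3 exons, with 403 reads in replicate 2 and 301 in replicate 1, or 92.9% and 94.4% of the reads in known models and new chains. It kept 8 further bases after annotated exon 1 (31614023 to 31614030), left out the exon of 19 bases and joined exon 3 and exon 4 at their annotated borders. Models with the exon of 19 bases held 11 reads in replicate 2 and 3 in replicate 1.

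The sequences of both forms from the annotated start codon to base 30 of exon 3 show the exchange, with the letters that differ in capitals (the exon of 19 bases in the first line, the 8 bases in the second). They were put together from GENCODE M21 transcripts at chr5:31614001-31616410, plus strand. The third line gives the first 20 bases after annotated exon 1, with the 8 bases in capitals.
annotated Mrpl33-201: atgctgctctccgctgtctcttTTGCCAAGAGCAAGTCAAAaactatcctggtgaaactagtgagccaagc
main read model of Mrpl33: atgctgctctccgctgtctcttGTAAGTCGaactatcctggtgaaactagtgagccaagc
after annotated exon 1 (chr5:31614023-31614042): GTAAGTCGgtctgaggcggc

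The main model was 11 bases shorter than the annotated form over this stretch. Read in the annotated frame, Mrpl33-201 has 65 codons before a stop codon and the main model 42. The longest run of letters shared by the 8 bases and the exon of 19 bases is 5. The models give coordinates of aligned exons, and the letters of the reads themselves were not analysed here, so which of the sequences the molecules hold was not tested.

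**Figure D4:**
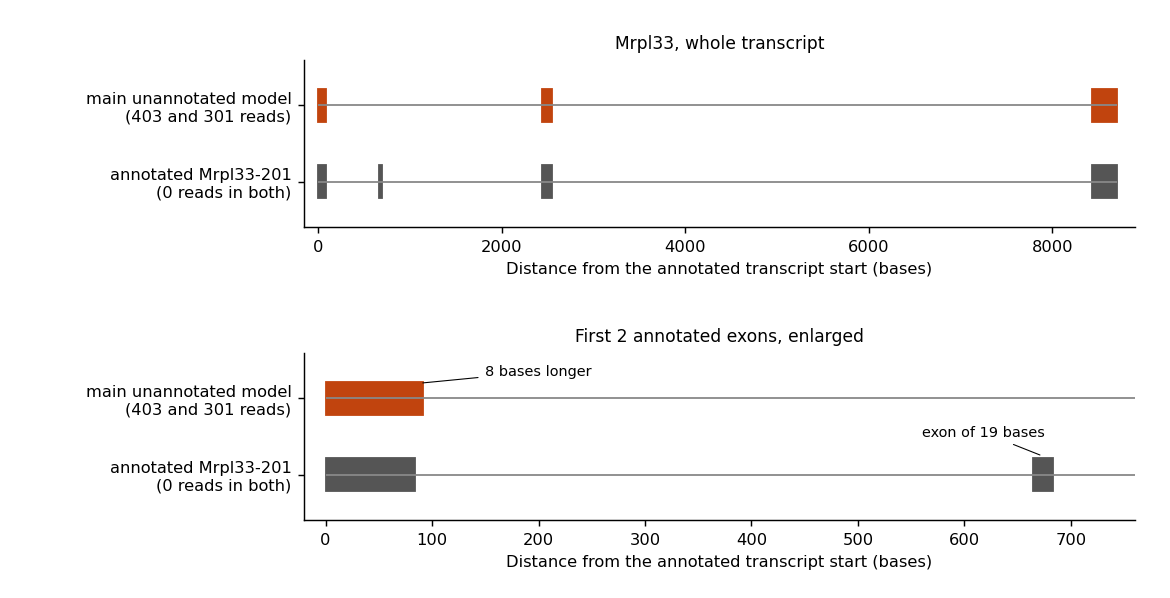
Exons (boxes) and introns (lines) of the main Mrpl33 read model, above, and of annotated Mrpl33-201, below, against distance from the annotated transcript start in bases, whole (top panel) and enlarged (bottom panel). The 403 and 301 reads are those of replicate 2 and replicate 1. Exon 1 of the read model is 8 bases longer and the annotated exon of 19 bases has no counterpart in it.

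Mrpl30 had a single-exon model inside its last exon that outnumbered its full transcripts. It held 330 reads in replicate 2 (70.2% of the gene, chromosome 1, 37898061 to 37898338) and 264 reads in replicate 1 (70.6%, 37898165 to 37898338). Both ended at the same base, 77 bases into the 3′ untranslated region, where the annotated exon runs on to 37898535. The model was classed as an incomplete splice match in replicate 2 and as genomic in replicate 1, so the split between these classes is not comparable between the libraries. The full transcript Mrpl30-201 had 97 reads in replicate 2 and 80 in replicate 1.

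Mrpl24 had a single-exon genomic model with 184 reads in replicate 2 (65.2%) and 125 in replicate 1 (53.6%). In replicate 2 the model spanned 87922388 to 87924892 on chromosome 3, from annotated exon 4 over the introns to 1230 bases past the end of Mrpl24-202. In replicate 1 the listed model is 1 base long (87923316), so its extent there is not known. Mrpl24 overlaps Rrnad1 on the opposite strand, and whether the counting used strand is not given in the sources used here.

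Smaller models of the same kind lay in the last exon of other genes. Mrpl51 had 59 reads in replicate 2 and 55 in replicate 1 in such a model (34.1% and 30.1%). Mrpl20 had 55 and 35 (18.5% and 15.0%), Mrpl16 had 40 and 28 (41.7% and 31.1%), and Mrpl44 had 28 and 19 (38.4% and 26.4%) in replicates 2 and 1. Mrps22, a small-subunit protein without a bacterial counterpart, instead had a spliced partial model of its last 5 of 8 exons with 47 reads in replicate 2 and 46 in replicate 1, nearly as many as its full transcript, with 50 and 45 reads. Of these, Mrpl51, Mrpl16, Mrpl44 and Mrps22 are named after their values were seen.

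Apart from Mrpl33, 1 annotated protein-coding transcript led every gene. Over reads of known models and of new chains, called full-splice reads here, the leading transcript held a median of 93.3% in replicate 2 and 93.7% in replicate 1, and 46 of the 78 had over 90% in both libraries. In the Fisher exact test of the leading transcript against all others, 0 of 75 genes with more than 1 transcript were called. Over all 4817 genes tested 0.125% were called. Under an unadjusted p of 0.05 in this test were 6 of the 75, again without a share over all genes.

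A second transcript with at least 10% of full-splice reads in both libraries was found in 10 genes. The most even were Mrpl24, Mrps10, Mrpl55 and Mrps17. In Mrpl24 the second protein-coding transcript had 29 of 97 reads (29.9%) in replicate 2 and 27 of 104 (25.96%) in replicate 1. In Mrps10, a small-subunit protein of bacterial origin, it had 20 of 62 (32.3%) and 34 of 87 (39.1%), the leading one holding 62.9% and 46.0% in replicates 2 and 1.

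In Mrps17, a small-subunit protein of bacterial origin, the leading transcript held 41.6% in replicate 2 and 50.7% in replicate 1, and the second 16.1% and 10.6%. In Mrpl55 the leading transcript held 51.5% and 45.0% and the second 14.6% and 20.0%. Mrps12, which takes part in decoding as in bacteria, had a second protein-coding transcript at 25.3% in replicate 2 and 26.9% in replicate 1. None of these differences passed the test between libraries named above.

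In Mrpl30 the second transcript held 22.1% in replicate 2 and 19.1% in replicate 1, in Mrps23 18.6% and 22.9%, and in Mrpl58 17.0% and 10.4%. Mrpl58 is the peptidyl-tRNA hydrolase that became part of the large subunit. In Mrpl57 and Mrps26 the second was a retained-intron transcript, with 17.0% and 19.05% in Mrpl57 and 11.5% and 12.8% in Mrps26 in replicates 2 and 1. That of Mrpl57 has a single exon, so its reads, 16 in each library, cross no splice junction. They count as full-splice reads here only because the model is an annotated transcript.

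Unannotated full-splice chains numbered 392 over the 78 genes, 71 of them in both libraries, with 794 reads in replicate 2 and 638 in replicate 1. The main model of Mrpl33 made up 403 and 301 of these reads. The next were a 3-exon chain of Mrps17 with 22 reads in replicate 2 and 13 in replicate 1, a 2-exon chain of Mrpl55 with 10 and 8, a 7-exon chain of Mrpl24 with 6 and 8, and a 4-exon chain of Mrpl15 with 7 and 5. These 4 joined annotated splice sites in new combinations.

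The 78 genes lay on 17 chromosomes, with 11 of them on chromosome 11. A protein-coding gene started within 1000 bases upstream on the opposite strand in 18 of the 78 (23.1%), beside 1491 of 22028 protein-coding genes (6.77%) in the annotation. The 22028 include genes without reads in these libraries, and no share for genes in the same range of CPM is given here. Mrps11 and Mrpl46 overlap on opposite strands by their annotated bounds and are not counted among the 18. Levels within the counted pairs could differ widely. Mrpl49, with 71.1 and 70.5 CPM in replicates 2 and 1, started 59 bases from Fau, which encodes a protein of the cytosolic ribosome and had 323 and 304 CPM. Mrpl30 started 66 bases from Mitd1, which had 7.11 CPM in replicate 2 and 14.5 CPM in replicate 1.

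Mrps12 started 172 bases from Sars2, the mitochondrial seryl-tRNA synthetase, with 90.7 and 24.7 CPM as means of the libraries for Mrps12 and Sars2. Mrpl32 started 75 bases from Psma2, a proteasome subunit, with means of 52.8 and 250 CPM. Mrps18c started 29 bases from Helq, which had 4 reads in replicate 2 and 9 in replicate 1 and was not called. Of the 18 partners, Lrrc46, Hira and Zfp661 had too few reads to be tested. Among the tested partners, Pnpla7 (beside Mrpl41) was called higher in replicate 2 and Apba3 (beside Mrpl54) higher in replicate 1. Neither Mrpl41 nor Mrpl54 was called. Over all genes tested 9.17% were called.

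In 13 of the 78 genes another annotated gene overlapped on the same strand and in 36 on the opposite strand, Mrpl33 (Gm43809 and Rbks) among both. Reads of such pairs can be split by the counting. The processed copies Mrpl23-ps1, with 44 reads in replicate 2 and 39 in replicate 1, and Mrps36-ps1, with 5 and 0 reads, were counted as genes of their own and are not among the 78, so the counts of Mrpl23 and Mrps36 are uncertain to that extent.

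Promoters were read from RefSeq (GRCm38.p6), which gave a window of 250 bases before to 50 after the start for 69 of the 78 genes. Of these, 23.2% held the NRF1 motif GCGCANGCG on either strand (16 of 69), beside 16.5% of the 3903 promoters of other genes in the same range of CPM and 6.47% of all 27025 promoters. The ETS motif CCGGAAG, bound by GABP, was found in 36.2% (25 of 69), beside 22.7% and 9.12%. NRF1 and GABP are known as activators of nuclear genes for mitochondrial proteins. The YY1 motif AAGATGGC was found in 17.4% (12 of 69), beside 5.97% and 2.88%.

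The SP1 motif GGGCGG was in 49.3%, below the 68.3% of genes in the same CPM range and above the 35.9% of all promoters. The NF-Y motif CCAAT was in 39.1%, beside 40.4% and 37.9%, and TATAAA in 5.80%, beside 7.33% and 14.2%. Matches of different motifs shared bases in 2 of the 69 promoters. An NRF1 or ETS match was present in 50.7% of the 69. Counted from the start, the median centre of the matches lay at -44.5 bases for NRF1 and at -13 bases for ETS. With the 150 bases before the start alone, the share with the ETS motif was 20.3%, beside 14.3% of genes in the same CPM range and 5.68% of all promoters, and that with the YY1 motif was 2.90% (2 of 69), beside 1.67% and 0.881%.

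**Figure D5:**
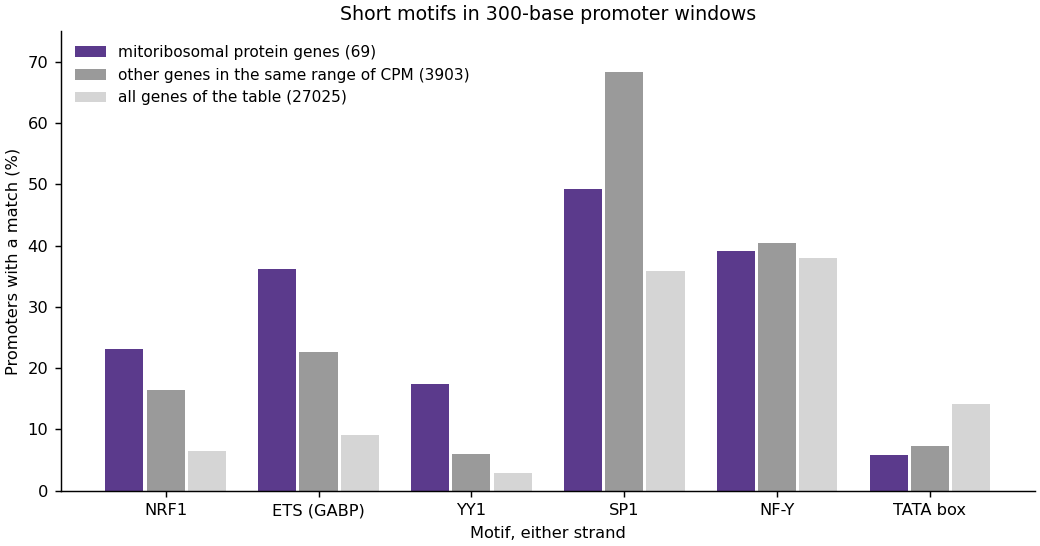
Share of 300-base promoter windows (%) with at least 1 match of each of 6 motifs on either strand, in 69 mitoribosomal protein genes, in 3903 other genes in the same range of CPM and in all 27025 genes of the table. The bars of the mitoribosomal genes are the highest of the 3 for NRF1, ETS and YY1, and the lowest for the TATA box.

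The 4 promoters shown are those of the highest genes by CPM with an NRF1 or ETS match, which include 3 of the called genes. They are given 5′ to 3′ in the direction of the gene (GRCm38.p6), with NRF1 and ETS matches in capitals.
Mrpl30 (chr1:37890227-37890526, strand +): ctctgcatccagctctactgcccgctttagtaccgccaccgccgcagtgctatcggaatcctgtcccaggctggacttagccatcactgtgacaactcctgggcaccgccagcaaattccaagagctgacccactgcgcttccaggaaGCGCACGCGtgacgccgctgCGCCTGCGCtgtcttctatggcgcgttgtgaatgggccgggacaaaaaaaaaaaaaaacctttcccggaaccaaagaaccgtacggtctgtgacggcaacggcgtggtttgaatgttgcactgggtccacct
Mrpl33 (chr5:31613701-31614000, strand +): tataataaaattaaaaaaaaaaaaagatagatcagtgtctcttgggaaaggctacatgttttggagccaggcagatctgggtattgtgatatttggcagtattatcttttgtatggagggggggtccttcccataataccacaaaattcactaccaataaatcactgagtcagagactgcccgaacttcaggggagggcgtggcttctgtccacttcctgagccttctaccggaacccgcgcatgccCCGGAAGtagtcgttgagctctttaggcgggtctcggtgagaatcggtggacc
Mrps21 (chr3:95871465-95871764, strand -): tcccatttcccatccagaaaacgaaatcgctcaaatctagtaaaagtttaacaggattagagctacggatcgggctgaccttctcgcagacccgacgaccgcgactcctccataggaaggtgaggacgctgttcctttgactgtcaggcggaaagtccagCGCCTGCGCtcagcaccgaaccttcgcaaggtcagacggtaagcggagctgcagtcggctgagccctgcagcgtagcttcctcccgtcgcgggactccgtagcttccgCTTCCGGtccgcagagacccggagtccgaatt
Mrpl12 (chr11:120484387-120484686, strand +): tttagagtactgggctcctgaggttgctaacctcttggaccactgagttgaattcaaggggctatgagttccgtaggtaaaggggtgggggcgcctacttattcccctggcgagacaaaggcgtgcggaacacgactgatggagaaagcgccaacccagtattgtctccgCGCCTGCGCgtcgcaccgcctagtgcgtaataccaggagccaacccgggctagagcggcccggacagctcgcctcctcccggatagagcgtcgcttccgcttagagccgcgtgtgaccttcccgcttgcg

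Mrpl30 holds 2 NRF1 matches, Mrpl33 an ETS match that spans the start, Mrps21 1 match of each motif and Mrpl12 an NRF1 match. A match is a description of letters, and no binding was measured. Mrpl20 and Mrpl24, which ranked 3 and 4 by CPM, have windows without either motif.

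Calls between the libraries in other genes of mitochondrial translation stand beside the 9.17% called over all genes tested. At low levels the test resolves only larger ratios, so a gene not called was not shown to be alike in both libraries. Of 5 mitoribosome proteins under other names, 0 were called in the exact binomial test. The highest were Gadd45gip1, a large-subunit protein, with levels of 340 and 312 CPM in replicates 2 and 1, and Aurkaip1, a small-subunit protein, with 181 and 166 CPM. Gadd45gip1 had 32.2% known reads in replicate 2 and 34.9% in replicate 1.

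Of 15 translation factors, 1 was called higher in replicate 2. It was Slirp, which together with Lrpprc binds mitochondrial messenger RNAs, with 245 reads in replicate 2 and 163 in replicate 1, at a ratio of 1.47 (interval 1.20 to 1.81, adjusted p = 0.0030 in the exact binomial test). It was also the highest of its list, with levels of 249 and 169 CPM in replicates 2 and 1. Tufm, the mitochondrial elongation factor Tu, followed with 135 and 130 CPM.

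Of 21 tested assembly factors of 22 listed, 1 was called higher in replicate 1. It was Noa1, a GTPase known to be needed for the small subunit, with 38 reads in replicate 2 and 67 in replicate 1, at a ratio of 0.56 (interval 0.36 to 0.84, adjusted p = 0.040 in the exact binomial test). The highest of this list were Mpv17l2, with 161 and 176 CPM, and Rbfa, with 84.3 and 90.2 CPM in replicates 2 and 1.

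None of 17 mitochondrial aminoacyl-tRNA synthetases was called in the exact binomial test. Fars2, with 117 and 115 CPM, and Iars2, with 83.2 and 102 CPM in replicates 2 and 1, were the highest. The median log2 ratio was 0.12 for the mitoribosome proteins under other names, 0.01 for the translation factors, -0.28 for the assembly factors and -0.29 for the synthetases, beside 0.03 for the 78 genes and -0.15 for all genes tested. By median of mean levels the lists stood at 104, 35.4, 38.5 and 44.7 CPM in the same order.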

How the data were processed

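Long reads of 2 adrenal libraries (replicates 2 and 1 of 1 group) were placed by the authors on mm10 and on models built over GENCODE M21, per the file headers, which name TALON as the source. The aligner, the versions and any filters were not given in the sources used here. Per the file headers, each deposited value is an unnormalized count of reads in 1 model. Counts were summed per annotated gene, all 18177 of which matched the annotation by identifier. CPM used the reads without ERCC spike-ins (985101 in replicate 2 and 964815 in replicate 1).

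The rule for the 78 genes reads symbols and no measured value, but the choice of this family, the subunit roles and the gene lists were made with earlier results of these data known. Named with values were the 10 genes with the highest mean CPM, every called gene, the stalk genes, the Mrps18 paralogs, genes of at least 50 reads with under 50% known reads in both libraries, up to 12 genes whose second transcript reached 10% in both, the 5 unannotated chains with the most reads, and from each other list the 2 highest and every called gene. No gene had fewer than 10 reads.

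Tests were two-sided exact binomial tests (at least 10 reads over both libraries) and Fisher exact tests (at least 20 reads in each), adjusted by Benjamini-Hochberg over the whole table at 0.05, with SciPy 1.17.1. They compare 2 libraries, and p-values, intervals (95%) and the level of 3 reads cover counting error only, since reads carry no molecular identifiers. For the log2 ratio 0.5 reads were added to each count. edgeR 4.0.16 (TMM) and DESeq2 1.42.0 gave scaling factors for alternatives only. Other alternatives were spike-in scaling, other minimums, known models only and a shorter promoter window. All 3 tests were run on simulated data with counting error alone, which could not cover further variation between libraries. For genes with several promoter windows the first listed was used.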

Additional observations from a re-analysis of the deposited data

How the results depend on the processing

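The count of genes called between the libraries, 5, was 12 with TMM scaling, 9 with median-of-ratios size factors and 3 with known models only, and between 4 and 6 under the other 4 alternatives. Over all 11094 genes tested, 483 were called higher in replicate 2 and 534 higher in replicate 1. These became 675 and 205 with TMM scaling, 607 and 260 with median-of-ratios size factors, and 427 and 718 with spike-in scaling. With known models only they were 392 and 368 of 8771 genes. All 5 mitoribosomal genes stayed higher in replicate 2 with TMM scaling and with median-of-ratios size factors. Mrpl33 turned to a ratio of 0.41 (adjusted p = 0.52 in the exact binomial test) over known models only, which leave out its main model. Mrpl30 was not called with known models only, with spike-in scaling or without a minimum. The summed level was 11029 CPM with known models only, against 9725 CPM, and 9360 to 10090 CPM in single libraries. The ratio of the large-subunit to the small-subunit median was 1.03, 0.98 with known models only, 0.82 with subunits by symbol alone, which moves Mrps18a, Mrps30 and Mrps36, and 1.01 to 1.05 in single libraries. The share of known reads, 80.9%, was 88.9% over models with 2 or more exons and 88.4% with new chains counted, and 79.5% to 82.3% in single libraries. With the shorter promoter window the shares were 20.3% for ETS, 2.90% for YY1 and 27.5% for NF-Y, beside 14.3%, 1.67% and 30.5% of genes in the same CPM range. The counts of 0 in both Fisher exact tests were also 0 under their alternatives. No paired analysis was possible because the study has 1 group. With 1 group of 2 libraries, a test without either replicate cannot be made. Depth limits the low genes most: the interval of the ratio of Mrpl47, with 23 reads in replicate 2 and 34 in replicate 1, ran from 0.37 to 1.16.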
